A study of Mus musculus with 18 samples.

Results

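Transcripts of cell cycle and DNA replication genes were measured in heart tissue of mice with myocardial infarction. The set holds 39 genes, chosen by symbol with earlier results of these data known, and read from 18414 genes in each deposited table. It was split by role into 9 genes of S phase, when DNA is copied, and 30 genes of mitosis, when the copies are separated. All 18 libraries, in 6 groups of 3, came from infarcted hearts, and every group received its last injection 1 day before the heart was taken. PBS_D3 and aNMP-2a_D3 received PBS (buffer) or the nanomedicine aNMP-2a on day 3 and were sampled on day 4. The day 7 injection followed aNMP-2a on day 3 in every mouse and was PBS for the group aNMP-2a+PBS_D7 or aNMP-2b for the group aNMP-2a+2b_D7, both sampled on day 8. The day 14 injection followed both aNMP-2a and aNMP-2b and was PBS for the group aNMP-2a+2b+PBS_D14 or aNMP-2c for the group aNMP-2a+2b+2c_D14, both sampled on day 15. PBS alone was therefore given to 1 group, and the controls of the later days carried the earlier nanomedicines. The labels used here give no strain, age or sex, nor whether replicates came from different animals, so p values reflect only the spread among the libraries, which may be technical. The design contains no targeted gene.

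Cells that divide copy their DNA with the MCM helicase, which unwinds the double helix, the sliding clamp PCNA, which holds the polymerases on DNA, and enzymes that supply deoxynucleotides. They then enter mitosis under cyclin B and Cdk1, line up chromosomes on a spindle under a checkpoint, and leave mitosis when the anaphase-promoting complex destroys cyclin B. Genes of S phase are switched on largely by E2F factors, and those of mitosis later in the cycle by B-Myb and FoxM1 with the MuvB complex, which binds a CHR element often placed near a CCAAT box. In the infarcted heart most dividing cells are immune cells, fibroblasts and endothelial cells, while adult heart muscle cells divide rarely.

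The promoters of 6 members are shown because CHR and E2F matches were found at different shares of mitosis and S phase genes. Each is the RefSeq window of 300 bases, from 250 bases before to 50 bases after the annotated start, read 5′ to 3′ on the strand of the gene in build GRCm38.p6. Capitals mark matches on either strand to CCAAT, to the CHR letters TTTGAA, or to the E2F letters TTTGGCGC, TTTCCCGC, TTTGGCGG or TTTCCCGG. The mitotic promoters are those of Cdc20 (chr4:118437294-118437593, minus strand), an activator of the anaphase-promoting complex, of Ccnb2 (chr9:70421505-70421804, minus strand), a cyclin B, and of Plk1 (chr7:122159185-122159484, plus strand), a mitotic kinase.
Cdc20: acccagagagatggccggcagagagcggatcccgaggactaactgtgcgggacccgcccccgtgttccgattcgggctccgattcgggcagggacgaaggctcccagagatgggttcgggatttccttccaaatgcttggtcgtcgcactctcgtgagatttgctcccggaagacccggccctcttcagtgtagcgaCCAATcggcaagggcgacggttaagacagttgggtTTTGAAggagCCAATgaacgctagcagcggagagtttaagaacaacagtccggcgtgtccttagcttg
Ccnb2: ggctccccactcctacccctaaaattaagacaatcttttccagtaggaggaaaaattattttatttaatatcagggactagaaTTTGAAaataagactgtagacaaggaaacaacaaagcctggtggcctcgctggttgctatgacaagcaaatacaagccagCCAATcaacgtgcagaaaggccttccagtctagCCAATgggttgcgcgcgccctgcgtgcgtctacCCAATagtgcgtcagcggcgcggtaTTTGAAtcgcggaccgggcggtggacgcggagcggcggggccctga
Plk1: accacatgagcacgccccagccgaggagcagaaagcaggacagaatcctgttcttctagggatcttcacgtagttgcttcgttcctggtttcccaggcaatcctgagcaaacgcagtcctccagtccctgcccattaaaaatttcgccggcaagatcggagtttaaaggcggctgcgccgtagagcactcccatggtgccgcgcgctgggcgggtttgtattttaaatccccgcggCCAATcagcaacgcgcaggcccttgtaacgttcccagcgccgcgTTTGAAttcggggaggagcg
The S phase promoters are those of Mcm5 (chr8:75109259-75109558, plus strand) and Mcm6 (chr1:128359656-128359955, minus strand), both subunits of the helicase, and of Tk1 (chr11:117825965-117826264, minus strand), thymidine kinase.
Mcm5: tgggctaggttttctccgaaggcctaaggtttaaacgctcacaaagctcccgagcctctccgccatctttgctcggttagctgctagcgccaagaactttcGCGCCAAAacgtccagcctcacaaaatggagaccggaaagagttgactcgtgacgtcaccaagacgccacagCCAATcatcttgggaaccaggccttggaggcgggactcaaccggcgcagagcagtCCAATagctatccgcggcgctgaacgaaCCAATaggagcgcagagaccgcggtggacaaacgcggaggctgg
Mcm6: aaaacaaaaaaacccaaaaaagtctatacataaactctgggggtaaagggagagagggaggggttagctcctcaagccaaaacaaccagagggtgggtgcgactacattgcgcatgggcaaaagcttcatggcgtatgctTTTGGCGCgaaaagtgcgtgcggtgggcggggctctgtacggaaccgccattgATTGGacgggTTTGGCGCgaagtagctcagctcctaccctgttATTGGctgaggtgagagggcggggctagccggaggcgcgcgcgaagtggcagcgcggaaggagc
Tk1: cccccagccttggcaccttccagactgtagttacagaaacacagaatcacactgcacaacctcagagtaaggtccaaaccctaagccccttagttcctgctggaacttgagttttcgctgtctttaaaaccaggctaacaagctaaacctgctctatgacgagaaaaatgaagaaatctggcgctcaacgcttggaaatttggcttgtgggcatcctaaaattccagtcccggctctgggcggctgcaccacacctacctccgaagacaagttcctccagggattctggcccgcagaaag
Cdc20, Ccnb2 and Plk1 each held a CHR match and at least 1 CCAAT match, Mcm5 and Mcm6 held E2F and CCAAT matches, and Tk1 held none of the searched letters in this window. RefSeq promoters were matched for 34 of the 39 members, with no entry used for Mcm4, Kif20a, Tpx2, Aurkb and Ccna2. TTTGAA was present for 20 of 26 mitosis genes (76.9%) and for 1 of 8 S phase genes (12.5%), which was Mcm2, against 20.2% of all 27025 genes with a promoter and 14.6% of the 10439 of them that reached 1 FPKM in at least 3 libraries. The E2F letters were present for 3 of 26 mitosis genes (11.5%), namely Birc5, Kif15 and Melk, and for 4 of 8 S phase genes, namely Mcm3, Mcm5, Mcm6 and Mcm7, against 3.79% of all genes and 6.46% of those at 1 FPKM. CCAAT was frequent in both roles, at 80.8% of mitosis genes and 87.5% of S phase genes, against 41.1% of all and 42.6% of those at 1 FPKM. CCAAT and CHR stood together for 18 of 26 mitosis genes (69.2%), against 7.97% of all genes and 6.04% of those at 1 FPKM. Searched motifs overlapped each other in 2 members, Cdca8 and Ube2c, and in none of the 6 promoters printed. These shares describe letters in a fixed window and were not tested.

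Expression values were taken to be FPKM from their sums, since no header names the unit. FPKM are read fragments corrected for transcript length and library size, which allows levels to be compared between genes. Pcna was the most abundant member, at 49.0 to 83.4 FPKM, and the least abundant was Kif15, a spindle motor, at 0.09 to 1.23 FPKM. All 39 members reached 1 FPKM in each PBS_D3 library, and 18 of them did so in all 18 libraries. PBS_D3 had the highest group mean for 37 members. The exceptions were Mcm6, highest in aNMP-2a_D3, and Cenpf, a kinetochore protein, highest in aNMP-2a+PBS_D7. The lowest group mean was in aNMP-2a+2b+PBS_D14 for 37 members, while Ect2 was lowest in aNMP-2a+2b+2c_D14 and Cenpf in aNMP-2a+2b_D7.

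**Figure D1:**
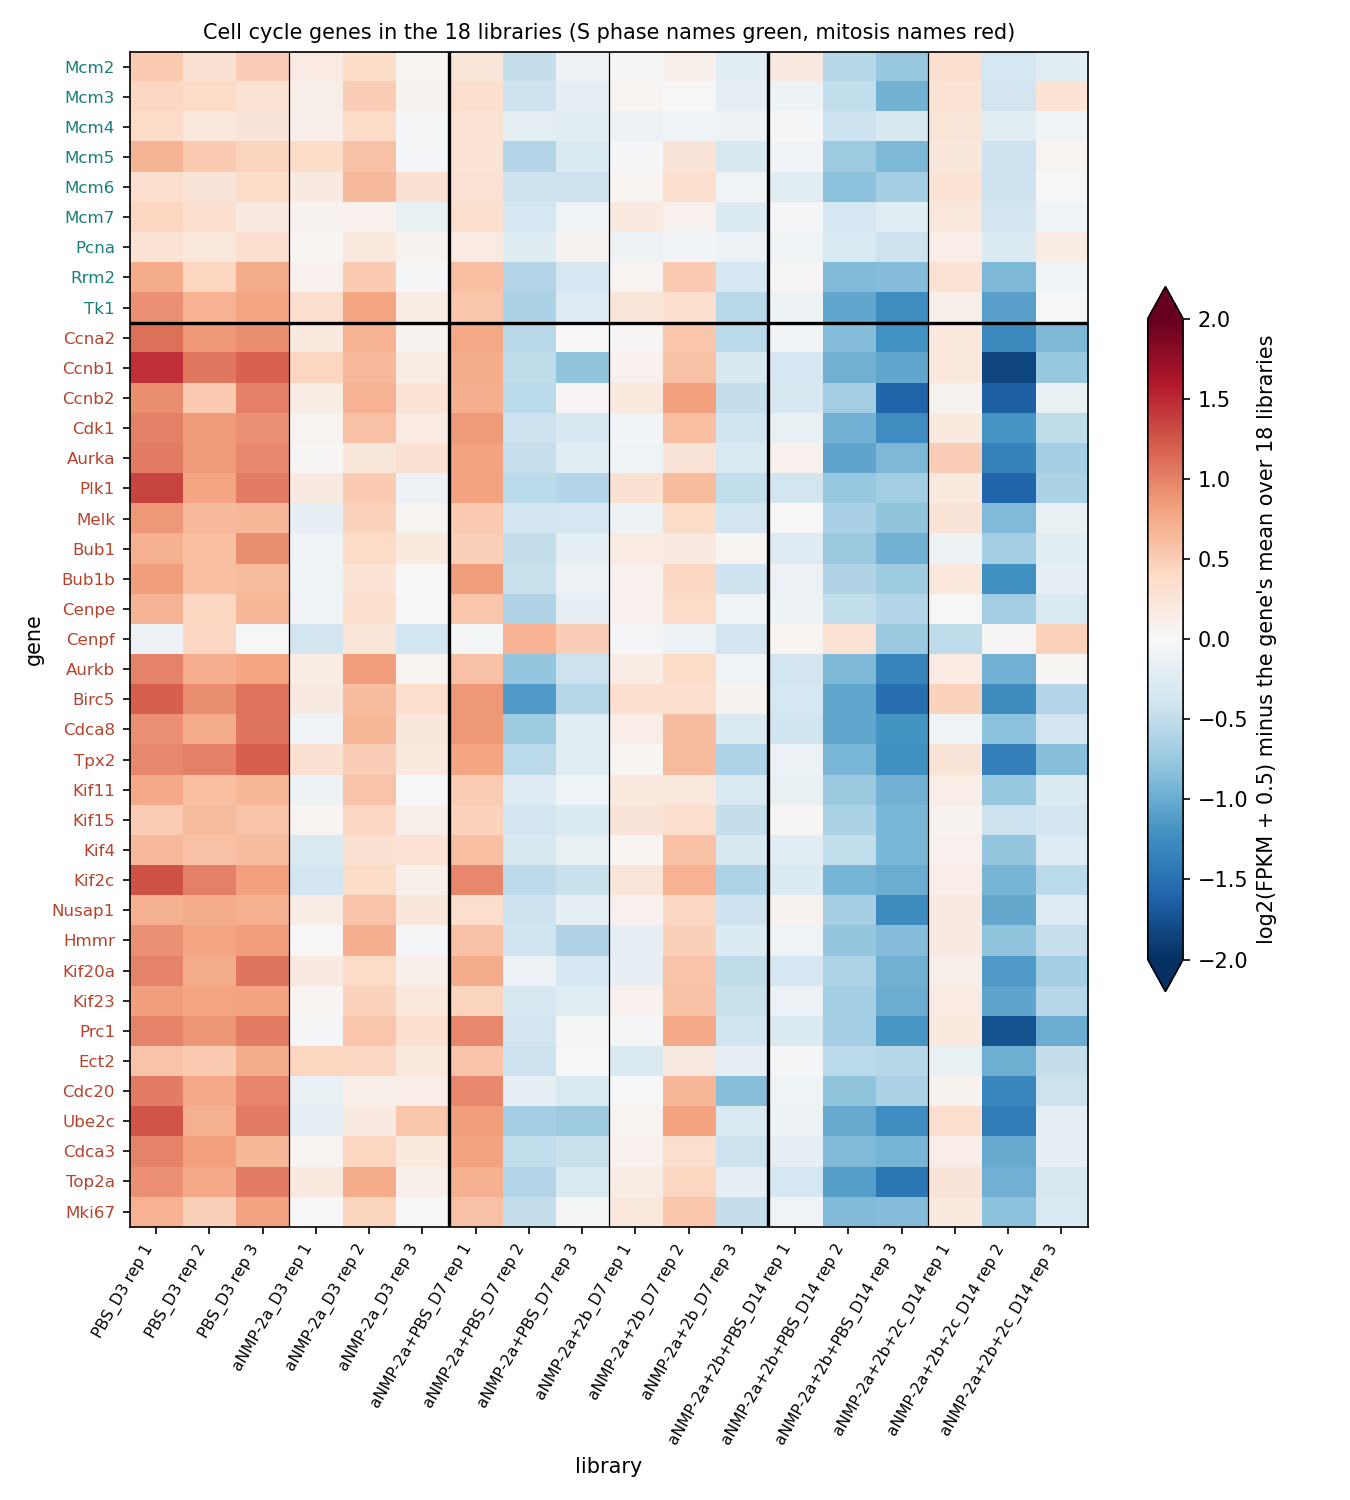
Each cell shows log2(FPKM + 0.5) of 1 gene in 1 library minus the mean of that gene over the 18 libraries, with S phase genes above the horizontal line and mitosis genes below it. The 3 PBS_D3 libraries are high for nearly all genes, and in the later groups single libraries stand above or below their replicates across the whole set.

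Within most groups 1 library was the highest for nearly all members. In PBS_D3 this was less so, with replicate 1 the highest for 24 members, replicate 3 for 12 and replicate 2 for 3. In aNMP-2a_D3, replicate 2 was the highest of its group for 35 of 39 members, while the lowest was replicate 1 for 22 and replicate 3 for 17. Replicate 1 was the highest for 38 members in aNMP-2a+PBS_D7 and for 38 in aNMP-2a+2b+PBS_D14. In aNMP-2a+2b_D7, replicate 2 was the highest for 35 members and replicate 3 the lowest for 37. In aNMP-2a+2b+2c_D14, replicate 1 was the highest for 36 members and replicate 2 the lowest for 38. The SD of log2(FPKM + 0.5) within a group had a median over mitosis genes of 0.14 in PBS_D3, 0.27 in aNMP-2a_D3 and between 0.43 and 0.66 in the 4 later groups. For S phase genes it was 0.11 in PBS_D3 and between 0.20 and 0.43 in the other groups. Over all genes at 1 FPKM or more in at least 3 libraries it lay between 0.10 and 0.24. In aNMP-2a+2b_D7 the S phase median equalled that of all genes, at 0.20, and in the other later groups both roles were above it.

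The libraries themselves were unequal in tissue content. FPKM values summed to 704356 to 814452 per library, and 12181 to 12821 genes reached 1 FPKM. No counts are given, so read depth is unknown. Myl7, a myosin light chain of atrial muscle, was at 85.1 to 2982 FPKM in 8 libraries and at 8.26 FPKM or less in the other 10. The 8 were aNMP-2a_D3 replicates 1 and 3, aNMP-2a+PBS_D7 replicate 2, aNMP-2a+2b_D7 replicates 1 and 2, aNMP-2a+2b+PBS_D14 replicates 2 and 3 and aNMP-2a+2b+2c_D14 replicate 2. The labels name the tissue as heart and do not say whether each sample included the atria. The 6 cardiomyocyte markers, which define heart muscle, summed to between 26197 and 59664 FPKM in the 18 libraries. Summed fibroblast markers were highest in aNMP-2a+2b+2c_D14 replicate 1 (4722 FPKM) and aNMP-2a+PBS_D7 replicate 1 (4319 FPKM). Both were also the highest of their groups for most members, and the highest of all libraries for macrophage markers (3017 and 2815 FPKM). In the remaining later groups the fibroblast sum was likewise highest in the library highest for most members. In PBS_D3 and aNMP-2a_D3 it was highest in replicate 3 (3243 and 3214 FPKM), which was the highest for 12 and 3 members. The macrophage sum was also highest in replicate 3 of these groups (1978 and 2528 FPKM). In aNMP-2a+2b_D7 the macrophage sum was highest in replicate 2 (2609 FPKM), the highest for 35 members. In aNMP-2a+2b+PBS_D14 it was highest in replicate 3 (1736 FPKM), the lowest for 31 members.

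The day 3 comparison set aNMP-2a against PBS 1 day after injection. Mitosis genes were lower after aNMP-2a, and 6 of the 30 passed the test and fell, to between 0.540 and 0.621 times the PBS level on the log2(FPKM + 0.5) scale. None of the 9 S phase genes passed. The 6 calls were not stable, and fewer of all genes passed in most of the same fits. In others members lost calls while the share of all genes held. With the replicate number as a block 3 members passed, against 1.85% of all genes. Without aNMP-2a_D3 replicate 1 it was also 3, against 1.91%. Without its replicate 2 it was 18, against 1.53%. No member passed with an atrial score as covariate, where 0.176% of all genes passed in either direction. None passed in a fit of all 18 libraries (0.0229% of all genes) or without PBS_D3 replicate 3 (0.572%). Leaving out 1 library gave 0 to 18 members, and 0.572% to 1.91% of all genes. In the fit of the 2 day 3 groups alone, 54 of all 12512 genes tested with limma were lower at a Benjamini-Hochberg adjusted p under 0.05 (0.432%). In either direction 1.84% passed. In bulk tissue, fewer dividing cells and less of these RNAs per cell cannot be told apart.

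Cdc20, which activates the anaphase-promoting complex, was at 11.9, 9.85 and 11.6 FPKM in the PBS_D3 libraries and at 5.06, 6.04 and 6.23 FPKM in aNMP-2a_D3. Its log2 fold change was -0.89 (SE 0.11, limma adjusted p = 0.00899). All 3 aNMP-2a libraries were below all 3 PBS libraries. Aurka, the kinase that matures centrosomes and builds the spindle, was at 5.47, 4.72 and 5.11 FPKM after PBS and at 2.45, 2.89 and 3.06 FPKM after aNMP-2a. It fell by 0.77 on the log2 scale (SE 0.11, limma adjusted p = 0.0175). Tpx2, the microtubule protein that activates Aurka, fell with it and the groups did not overlap for either gene. Tpx2 was at 6.38, 6.61 and 7.65 FPKM after PBS and at 3.86, 4.47 and 3.56 FPKM after aNMP-2a, a log2 fold change of -0.73 (SE 0.11, limma adjusted p = 0.0222).

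Kif20a, a motor of the central spindle needed for cytokinesis, was at 5.76, 4.74 and 6.09 FPKM after PBS and at 3.06, 3.62 and 2.89 FPKM after aNMP-2a. It fell by 0.71 (SE 0.12, limma adjusted p = 0.0349). Birc5 encodes survivin, a subunit of the chromosomal passenger complex that corrects spindle attachments. Its levels were 18.9, 15.5 and 17.5 FPKM after PBS and 9.08, 12.4 and 10.3 FPKM after aNMP-2a, and it fell by 0.69 (SE 0.12, limma adjusted p = 0.0389). Ccnb1, the cyclin B that drives Cdk1 into mitosis, was at 8.15, 6.03 and 6.56 FPKM after PBS and at 3.72, 4.40 and 2.99 FPKM after aNMP-2a. Its log2 fold change was -0.82 (SE 0.15, limma adjusted p = 0.0422). The groups did not overlap for Kif20a, Birc5 or Ccnb1. In build GRCm38.p6, Cdc20 lies at chr4:118432901-118437343, Aurka at chr2:172356190-172370886, Tpx2 at chr2:152847964-152895321, Birc5 at chr11:117849237-117855743 and Ccnb1 at chr13:100778739-100786486.

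**Figure D2:**
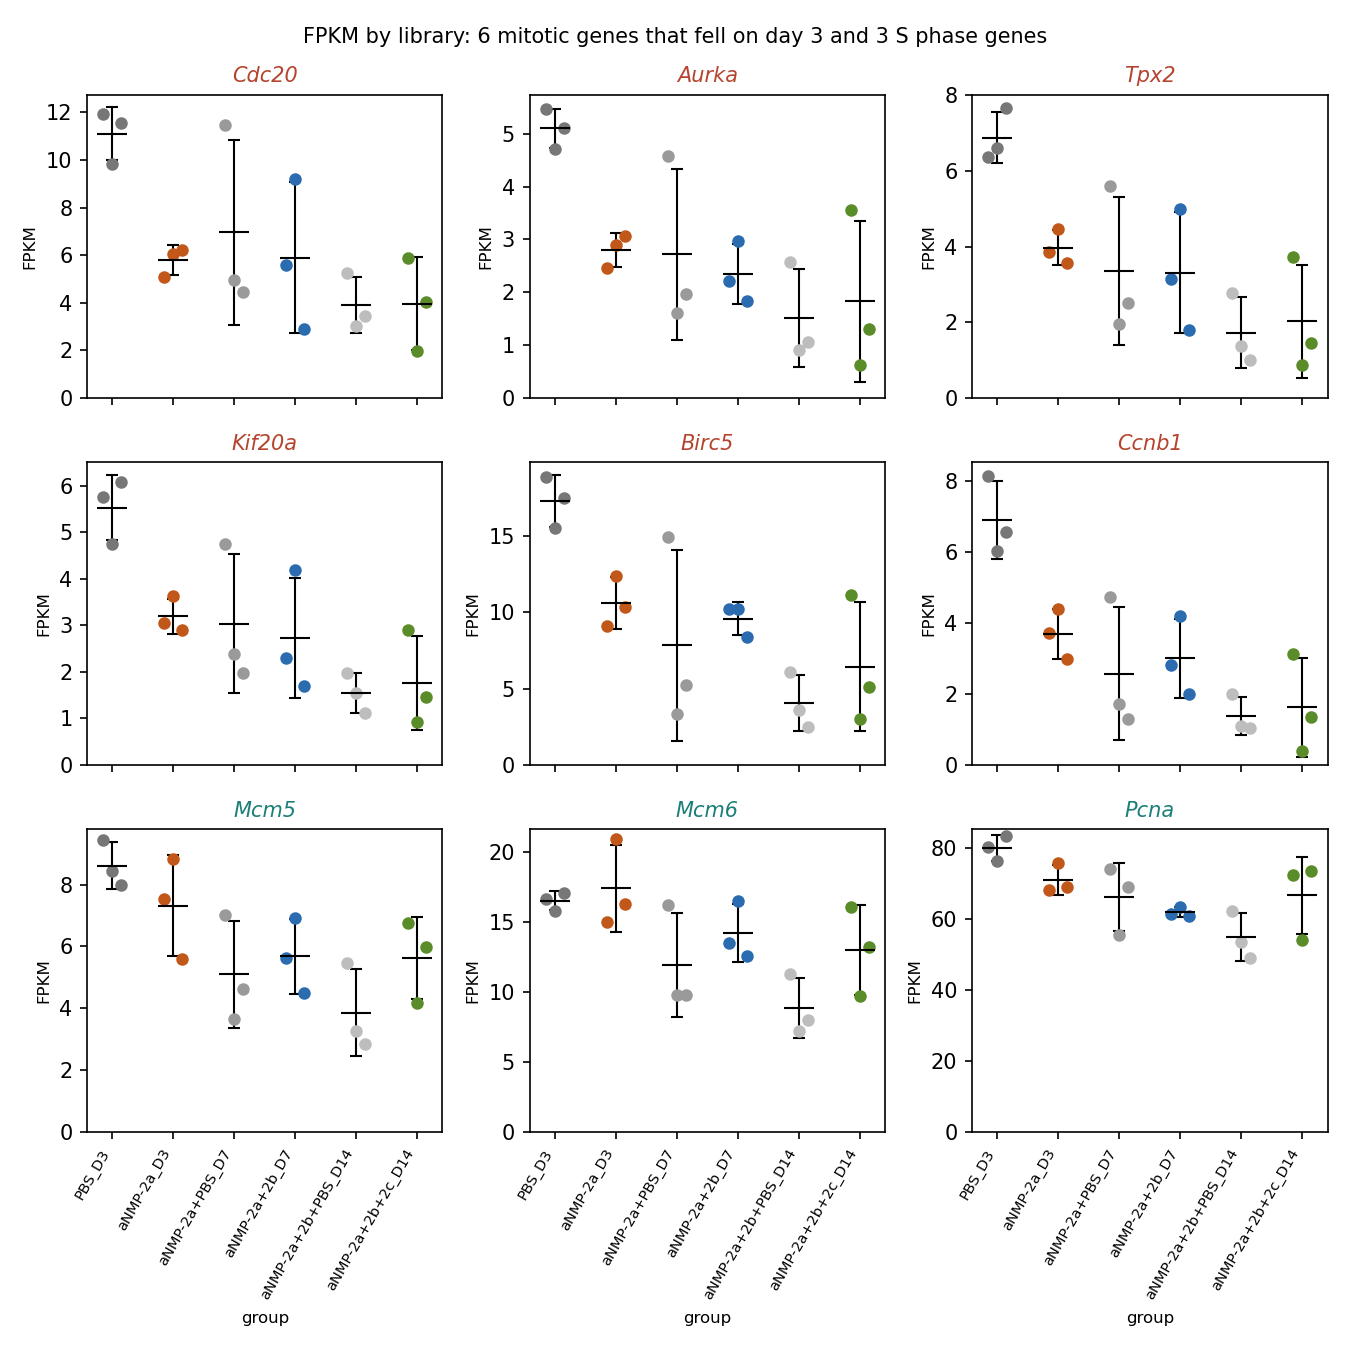
Points are FPKM of single libraries in the 6 groups, and the bar with its whiskers is the group mean ± SD of 3 libraries. For the 6 mitotic genes that fell on day 3 the aNMP-2a_D3 points lie below all PBS_D3 points. The same holds for the S phase gene Pcna, whereas Mcm5 and Mcm6 overlap between these groups.

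All 30 mitosis genes had a negative log2 fold change, with a median of -0.61 against 0.03 over all genes tested, of which 43.3% were negative. The groups did not overlap for 27 of them, against 8.50% of all genes with aNMP-2a lower. For 28 the unadjusted p was under 0.05, against 16.8% of all genes in either direction. With any single PBS_D3 library left out, only 37 members were tested. The remaining members, all mitosis genes, therefore reached 1 FPKM in the PBS_D3 libraries alone. They are counted in the 27, but entering the test in this way left their groups no room to overlap. The set was chosen with earlier results of these data known, so these shares describe it and do not test it. The 3 whose groups overlapped were Ccnb2, Cenpf and Aurkb, the kinase of the passenger complex. The median log2 fold change was -0.82 for Cdc20 and the other genes of mitotic exit and -0.77 for the kinases Aurka, Plk1 and Melk. It was -0.65 for the cyclins with Cdk1, -0.64 for the passenger complex, -0.63 for the midzone and cytokinesis genes, -0.54 for the checkpoint and kinetochore genes and -0.52 for the spindle motors and microtubule proteins. Kif2c, a motor that takes microtubules apart, had the lowest value of any member, at -1.01 (SE 0.21, limma adjusted p = 0.0567), with 4.10, 3.34 and 2.87 FPKM after PBS and 0.96, 1.96 and 1.53 FPKM after aNMP-2a. Its groups did not overlap, but it did not pass.

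The genes most used as proliferation markers did not pass. Mki67, which coats mitotic chromosomes, was at 5.85, 4.95 and 6.40 FPKM after PBS and at 3.40, 4.83 and 3.40 FPKM after aNMP-2a (log2 fold change -0.52, SE 0.15, limma adjusted p = 0.147). Top2a, the topoisomerase that disentangles chromosomes, had a value of -0.55 (SE 0.17, limma adjusted p = 0.169), and Cdk1 of -0.66 (SE 0.14, limma adjusted p = 0.0698). For each of these 3 genes the groups did not overlap. In Mki67 and Top2a aNMP-2a_D3 replicate 2 stood close to the lowest PBS library, at 4.83 against 4.95 FPKM for Mki67 and at 8.38 against 8.46 FPKM for Top2a.

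**Figure D3:**
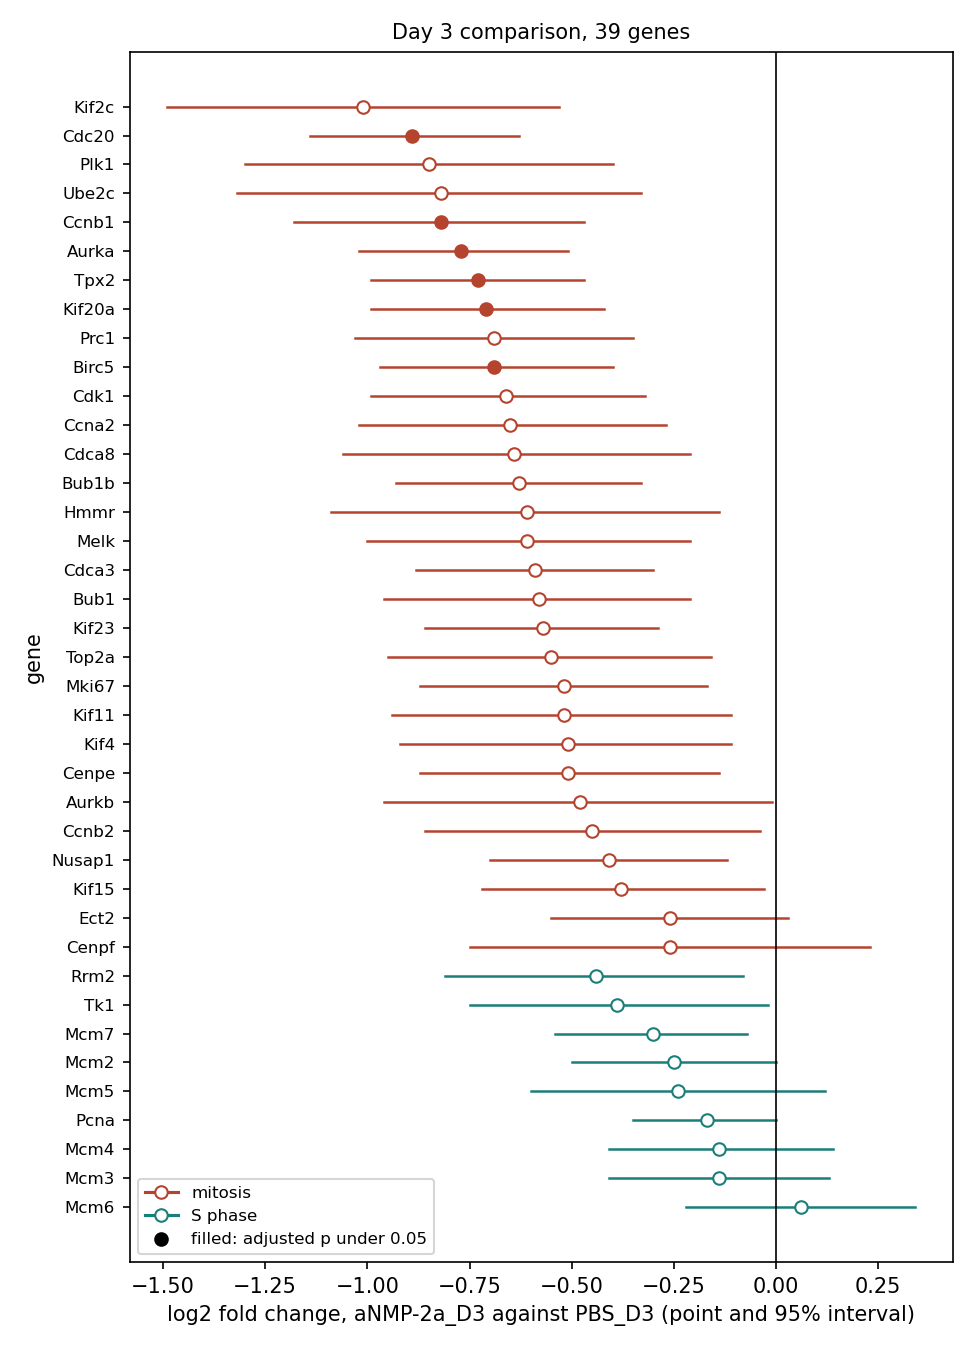
The horizontal axis is the log2 fold change of aNMP-2a_D3 against PBS_D3 with its 95% interval, for mitosis genes (red) and S phase genes (green), and filled points passed at an adjusted p under 0.05. All 30 mitosis genes and 8 of 9 S phase genes lie below 0. The interval of Mcm6 and those of several other S phase genes span 0, as do those of the mitosis genes Cenpf and Ect2.

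Among the S phase genes 8 of 9 were negative, and the median log2 fold change was -0.24. The groups did not overlap for 2 of the 9, Mcm7 and Pcna (22.2%), against 8.50% of all genes with aNMP-2a lower. Mcm6 had the highest value of all 39 members, 0.06 (SE 0.12, 95% interval -0.22 to 0.34, limma adjusted p = 0.828), from 16.7, 15.7 and 17.1 FPKM after PBS and 15.0, 20.9 and 16.3 FPKM after aNMP-2a. The other helicase subunits lay between -0.30 and -0.14. Mcm2 was at 9.86, 8.41 and 9.69 FPKM after PBS and 7.61, 8.82 and 6.93 FPKM after aNMP-2a, a log2 fold change of -0.25 (SE 0.11, limma adjusted p = 0.303). For Mcm5 the value was -0.24 (SE 0.15, limma adjusted p = 0.468), and in both genes aNMP-2a_D3 replicate 2 lay within the range of the PBS libraries. Pcna was at 80.2, 76.3 and 83.4 FPKM after PBS and at 68.1, 75.9 and 69.1 FPKM after aNMP-2a (log2 fold change -0.17, SE 0.08, limma adjusted p = 0.309). The deoxynucleotide genes were the lowest of the role, with Rrm2, a subunit of ribonucleotide reductase, at -0.44 (SE 0.16, limma adjusted p = 0.221) and Tk1 at -0.39 (SE 0.16, limma adjusted p = 0.278).

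Mitosis and S phase levels therefore stood at different distances in the 2 groups. The mean log2(FPKM + 0.5) of the mitosis genes was 2.45 ± 0.09 (SD, n = 3) in PBS_D3 and 1.84 ± 0.23 in aNMP-2a_D3, and that of the S phase genes was 3.85 ± 0.08 and 3.62 ± 0.21. The mitosis mean minus the S phase mean was -1.40, -1.42 and -1.37 in the PBS_D3 libraries and -1.92, -1.76 and -1.69 in the aNMP-2a_D3 libraries, without overlap. In the later groups it ranged from -1.85 to -1.45 in aNMP-2a+PBS_D7, from -1.90 to -1.47 in aNMP-2a+2b_D7, and from -2.35 to -1.88 in aNMP-2a+2b+2c_D14. It was -1.97 ± 0.11 in aNMP-2a+2b+PBS_D14, and the groups overlapped on each of these days. No test was made on these means.

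**Figure D4:**
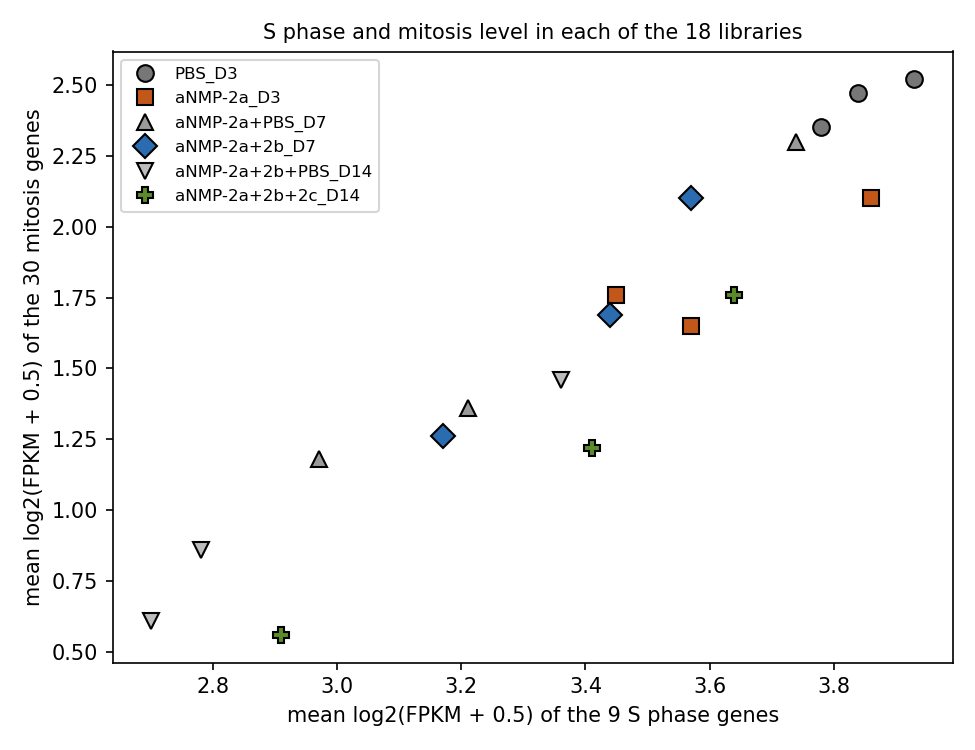
Each point is 1 library, with the mean log2(FPKM + 0.5) of the 9 S phase genes on the horizontal axis and that of the 30 mitosis genes on the vertical axis. The 3 PBS_D3 libraries lie together at the top right, and aNMP-2a_D3 replicate 2 reaches an S phase mean of 3.86, within the PBS_D3 range, with a mitosis mean below all PBS_D3 libraries.

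Other genes of the cycle were read from lists made for this purpose, with earlier results of these data known. Of their 98 genes 95 were tested on day 3, and 5 fell (5.26%), against 0.432% of all genes tested. Of 26 other mitotic genes, 24 were negative with a median of -0.50, against 43.3% of all genes negative, and 4 fell (15.4%). They were Nek2, a centrosome kinase (-0.79, limma adjusted p = 0.0391), Ttk, the kinase that starts the spindle checkpoint (-0.81, limma adjusted p = 0.0402), Ndc80, a kinetochore protein (-0.61, limma adjusted p = 0.0458), and Racgap1, a partner of Kif23 in the central spindle (-0.57, limma adjusted p = 0.0458). Gins2, a subunit of the active replicative helicase, was the only gene of origin licensing and firing that fell, from 9.96, 8.96 and 8.02 FPKM to 5.41, 5.79 and 5.18 FPKM (log2 fold change -0.67, SE 0.10, limma adjusted p = 0.0204). The median was -0.24 for the 15 genes of origin licensing and firing, -0.04 for polymerases and fork proteins, -0.06 for deoxynucleotide synthesis, 0.16 for the G1 cyclins and their kinases, and -0.12 for the CDK inhibitors.

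No gene of the lists on entry into the cycle passed. Ccnd1, the cyclin D of early G1, was at 33.0, 31.0 and 37.2 FPKM after PBS and at 37.7, 50.3 and 39.9 FPKM after aNMP-2a (log2 fold change 0.33, limma adjusted p = 0.235). Ccne1, the cyclin that opens S phase, had a value of -0.23 (limma adjusted p = 0.534), and E2f1, an activating E2F factor, of 0.01 (limma adjusted p = 0.985). Foxm1, a transcription factor for mitotic genes, was at -0.43 (limma adjusted p = 0.129) and Mybl2, which encodes B-Myb, at -0.32 (limma adjusted p = 0.338). The CDK inhibitors Cdkn1a and Cdkn1c were at -0.25 (limma adjusted p = 0.201) and -0.23 (limma adjusted p = 0.437). None of these 7 genes passed. Cdkn2a, a CDK inhibitor named here after its value was seen, had the lowest value of its list, at -0.61 (limma adjusted p = 0.196).

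Markers of other cells moved on the same day. Of 6 endothelial markers 2 fell, Kdr and Cldn5, and the list sum was 414 to 489 FPKM after PBS and 322 to 391 FPKM after aNMP-2a. Of 5 mural markers Acta2 fell, with sums of 488 to 537 and 329 to 356 FPKM. Of 4 mesothelial markers 3 rose, with sums of 5.96 to 13.9 and 49.9 to 62.6 FPKM, and of 4 tested red cell markers 3 rose, with sums of 5262 to 6318 and 7489 to 11006 FPKM. None of 6 macrophage markers passed, though their sum was 1439 to 1978 FPKM after PBS and 2282 to 2528 FPKM after aNMP-2a. Of 5 fibroblast markers Dcn rose, with overlapping sums of 2614 to 3243 and 2221 to 3214 FPKM. The part of these cells in the fall of the mitosis genes was not tested.

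Atrial markers summed to 2.41 to 3.78 FPKM after PBS, where Sln and Bmp10 were listed at 0, and to 6.43 to 5694 FPKM after aNMP-2a. Without the Myl7-rich replicates 1 and 3, aNMP-2a_D3 replicate 2 is left alone, so only effect sizes are given. The medians were then -0.33 for mitosis and -0.02 for S phase genes. With an atrial score as covariate no member passed, where 0.176% of all genes did, and the medians were -0.29 and 0.02. No member passed in a fit of all 18 libraries either, where the spread of the later groups was shared and 0.0229% of all genes passed. The replicate number as a block left 3 genes, Cdc20, Aurka and Tpx2, where 1.85% of all genes passed. Leaving out 1 library gave 1 gene without PBS_D3 replicate 1 or replicate 2 (Cdc20 each time), 0 without PBS_D3 replicate 3, and 3, 18 and 2 genes without aNMP-2a_D3 replicates 1, 2 and 3.

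The day 7 comparison set aNMP-2b against PBS in hearts that had all received aNMP-2a. No member passed among 36 tested, against 1 of all 12711 genes tested with limma (0.00787%), and 1 member had an unadjusted p under 0.05, against 7.78% of all genes. The 3 not tested, because fewer than 3 libraries reached 1 FPKM, were Bub1, Cenpe and Kif15. The median log2 fold change was 0.07 for S phase and 0.09 for mitosis genes, and 28 of 39 members were positive and 11 negative, against 50.9% of all genes negative.

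Cenpf was the member with an unadjusted p under 0.05. It was at 1.61, 3.01 and 2.53 FPKM in aNMP-2a+PBS_D7 and, after aNMP-2b, at 1.59, 1.49 and 1.18 FPKM, a log2 fold change of -0.56 (SE 0.23, limma adjusted p = 0.639). It was the lowest value of any member and the only one whose groups did not overlap, against 5.50% of all genes with aNMP-2b lower. The next smallest p was that of Mcm6, at 16.2, 9.77 and 9.79 FPKM after PBS and at 13.5, 16.5 and 12.5 FPKM after aNMP-2b (log2 fold change 0.27, SE 0.22, limma adjusted p = 0.823). The highest value was that of Birc5, 0.53 (SE 0.48, limma adjusted p = 0.848), from 15.0, 3.33 and 5.21 FPKM to 10.2, 10.2 and 8.36 FPKM. Replicate 1 of the PBS group was above all 3 aNMP-2b libraries and the other two were below them.

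Cdc20 was likewise highest in replicate 1 of the PBS group, at 11.5 FPKM against 4.96 and 4.45 FPKM in its replicates and 5.58, 9.21 and 2.90 FPKM after aNMP-2b (log2 fold change -0.23, SE 0.48, 95% interval -1.38 to 0.92). Mki67 had a value of 0.08 (95% interval -0.78 to 0.93), Top2a of 0.19 (-0.67 to 1.05), Cdk1 of 0.02 (-0.97 to 1.01) and Ccnb1 of 0.30 (-0.76 to 1.37). Of the S phase genes, the intervals were -0.41 to 0.55 for Mcm2, -0.45 to 0.78 for Mcm5 and -0.41 to 0.23 for Pcna, with Rrm2 at -0.68 to 1.05. The limma adjusted p of these 9 genes lay between 0.905 and 0.993. The intervals of Cdc20, Ccnb1, Cdk1, Top2a and Rrm2 reached beyond 1 in 1 direction, so they do not leave out a 2-fold change there.

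The direction on day 7 rested on single libraries. Without aNMP-2a+PBS_D7 replicate 1, whose fibroblast markers summed to 4319 FPKM against 1611 and 2075 FPKM in its replicates, 2 members were negative and the median was 0.38. Without replicate 2 of that group 32 members were negative. Without the 3 Myl7-rich libraries of the day all 39 were negative and the median was -0.52. Macrophage markers summed to 1032 to 2815 FPKM after PBS and to 2124 to 2609 FPKM after aNMP-2b, and T and NK cell markers, of which Gzma rose, to 11.1 to 24.0 and 65.4 to 71.0 FPKM. Among the cycle lists no gene passed. Cdkn1c, a CDK inhibitor, had a value of -0.78 (limma adjusted p = 0.329), and Cdkn1a, which is induced by p53, of 0.50 (limma adjusted p = 0.858), with 105 FPKM in aNMP-2a+2b_D7 replicate 3 and 27.1 and 38.3 FPKM in its replicates. The other 5 control genes lay between -0.11 (Ccnd1) and 0.49 (E2f1).

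The day 14 comparison set aNMP-2c against PBS in hearts that had received both earlier nanomedicines. No member passed among 32 tested, and none had an unadjusted p under 0.05, where 0 of all 12440 genes passed with limma (0.00%) and 8.55% had such a p. No member's groups were separated, against 15.4% of all genes. The median log2 fold change was 0.34 for the S phase genes, all 9 of which were positive, and 0.23 for the mitosis genes, of which 25 of 30 were positive. Over all genes tested the median was 0.02, with 45.2% negative. Bub1, Cenpe, Kif15, Kif4, Kif2c, Hmmr and Ect2 were not tested.

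Helicase subunits gave the smallest p values. Mcm6 was at 11.3, 7.24 and 7.99 FPKM after PBS and at 16.1, 9.69 and 13.2 FPKM after aNMP-2c (log2 fold change 0.53, SE 0.23, limma adjusted p = 0.607). Mcm3 was at 8.71, 6.51 and 4.61 FPKM and at 11.4, 7.18 and 11.5 FPKM (0.58, SE 0.27, limma adjusted p = 0.639). For both genes 2 libraries of aNMP-2c lay above all PBS libraries, and replicate 2 lay among them. Mcm5 had a value of 0.51 (95% interval -0.14 to 1.17), Mcm2 of 0.30 (-0.41 to 1.02), Pcna of 0.27 (-0.13 to 0.66) and Rrm2 of 0.34 (-0.58 to 1.26).

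Mitosis genes spread more widely. The highest value was that of Top2a, 0.62 (SE 0.40, limma adjusted p = 0.746), from 3.65, 1.98 and 1.46 FPKM after PBS and 5.89, 2.22 and 3.75 FPKM after aNMP-2c. The lowest was that of Ect2, which activates RhoA at the cleavage furrow, at -0.16 without a test, and the lowest tested was Prc1, which bundles microtubules of the midzone, at -0.14 (SE 0.50, limma adjusted p = 0.975). Cdc20 was at 5.24, 3.01 and 3.43 FPKM after PBS and at 5.89, 1.98 and 4.01 FPKM after aNMP-2c, with the extremes of the day both in the treated group (log2 fold change -0.05, 95% interval -0.95 to 0.85). Mki67 had a value of 0.29 (-0.52 to 1.11), Cdk1 of 0.29 (-0.77 to 1.35) and Ccnb1 of -0.02 (-1.28 to 1.24). The medians of the passenger complex and of the helicase were 0.51 and 0.41, and that of the midzone genes was -0.03.

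These values also turned on single libraries. Without aNMP-2a+2b+PBS_D14 replicate 1 or without aNMP-2a+2b+2c_D14 replicate 2 no member was negative, whereas without aNMP-2a+2b+2c_D14 replicate 1 20 members were. Replicate 1 of aNMP-2c held 4722 FPKM of fibroblast markers and 3017 FPKM of macrophage markers, against 1083 and 1141 FPKM and 1647 and 1877 FPKM in its replicates. In the control group the fibroblast sums were 1928, 1046 and 1159 FPKM. Of the polymerase and fork genes, 18 of 20 were positive, 0 passed and 5 of 19 tested had an unadjusted p under 0.05, among them Lig1, which joins DNA fragments (0.60, limma adjusted p = 0.486), and Chaf1b, which places histones on new DNA (0.68, limma adjusted p = 0.569). Cdkn1c was at -0.56 (limma adjusted p = 0.694) and Cdkn1a at 0.08 (limma adjusted p = 0.991), with 107.7 FPKM in aNMP-2a+2b+PBS_D14 replicate 3 and 26.0 and 17.9 FPKM in its replicates. The other tested control genes lay between 0.14 (Foxm1) and 0.42 (Ccne1), and Mybl2 was not tested.

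Groups were then set side by side across days, in 1 fit of all 18 libraries, where the later group had received the nanomedicines of the earlier one and PBS as its last injection. The days thus differ also by that injection and by the time since the last nanomedicine. Each day is a table of its own, so a change between days cannot be told apart from a batch. From day 4 to day 8 (aNMP-2a_D3 to aNMP-2a+PBS_D7) no member passed among 39 tested, against 16 of all 13116 genes with limma (0.122%), and 1 had an unadjusted p under 0.05, against 7.94%. The members were lower by a median of 0.27 on the log2 scale, with 36 of 39 negative against 52.4% of all genes, at -0.30 for S phase and -0.25 for mitosis genes. The smallest p values were those of Mcm6, at -0.55 (SE 0.22, limma adjusted p = 0.516), and Mcm5, at -0.50 (SE 0.26, limma adjusted p = 0.682). Mcm6 was at 15.0, 20.9 and 16.3 FPKM on day 4 and at 16.2, 9.77 and 9.79 FPKM on day 8, and the groups overlapped.

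The lowest value between these days was that of Birc5, -0.66 (SE 0.46, limma adjusted p = 0.812), and the highest that of Cenpf, 0.55 (SE 0.30, limma adjusted p = 0.704). Cdc20 was at 0.13, Mki67 at -0.12, Cdk1 at -0.24, Top2a at -0.41 and Ccnb1 at -0.60. Mcm2 and Rrm2 were both at -0.30 and Pcna at -0.11. The limma adjusted p of these 8 genes lay between 0.835 and 0.984. No member's groups were separated, against 14.2% of all genes, and aNMP-2a+PBS_D7 replicate 1 was above all aNMP-2a_D3 libraries for Cdc20 and Mki67 while its replicates were below them. Markers of other cells differed between these days as well. The 6 macrophage markers were all negative with a median of -0.68, and 4 had an unadjusted p under 0.05, with sums of 2282 to 2528 FPKM on day 4 and 1032 to 2815 FPKM on day 8. The 4 monocyte markers were all negative with a median of -1.08, with sums of 82.8 to 255 and 35.4 to 130 FPKM. The 4 B cell markers were all positive with a median of 1.63 and separated groups, with sums of 3.82 to 5.27 and 11.9 to 36.6 FPKM. None of these markers passed with limma, and 4 of 4 B cell and 1 of 4 monocyte markers had an unadjusted p under 0.05. Of 6 endothelial markers, all positive, Kdr rose by 0.74 (limma adjusted p = 0.038). The part of these cells in the values of the members was not tested.

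From day 8 to day 15 (aNMP-2a+2b_D7 to aNMP-2a+2b+PBS_D14) 38 of 39 members were lower, against 60.5% of all genes, with a median log2 change of -0.48 for S phase and -0.69 for mitosis genes. No member passed, where 2 of all 13116 genes passed with limma (0.0152%). An unadjusted p under 0.05 was found for 10 members (25.6%), against 20.7% of all genes. The groups did not overlap for 8 members, all lower on day 15, against 17.0% of all genes lower in that way. The shares of members were thus close to those of all genes, while the median over all genes was -0.07, and -0.12 when each library was rescaled to the same sum.

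Bub1, a checkpoint kinase at the kinetochore, had the smallest p, at 0.96, 0.99 and 0.86 FPKM on day 8 and 0.59, 0.28 and 0.17 FPKM on day 15 (-0.79, SE 0.25, limma adjusted p = 0.125). Mcm6 followed at 13.5, 16.5 and 12.5 FPKM and 11.3, 7.24 and 7.99 FPKM (-0.67, SE 0.22, limma adjusted p = 0.129). For both genes every day 15 library was below every day 8 library. The 3 members of the passenger complex were separated as well. Birc5 had the lowest value of all, -1.22 (SE 0.46, limma adjusted p = 0.168), from 10.2, 10.2 and 8.36 FPKM to 6.08, 3.61 and 2.47 FPKM. Cdca8, also called borealin, was at -1.03 (limma adjusted p = 0.143) and Aurkb at -1.01 (limma adjusted p = 0.153).

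Top2a was at -1.10 (limma adjusted p = 0.132), Ccnb1 at -0.89 (0.276), Cdk1 at -0.83 (0.248), Mki67 at -0.71 (0.239), Rrm2 at -0.65 (0.304), Mcm5 at -0.53 (0.256), Cdc20 at -0.45 (0.52), Mcm2 at -0.33 (0.415) and Pcna at -0.18 (0.428), with limma adjusted p values in brackets. Cenpf had the highest value, 0.04 (SE 0.30, limma adjusted p = 0.951). Markers of immune cells were lower together with the members, as were those of several other lists. Macrophage sums were 2124 to 2609 FPKM on day 8 and 665 to 1736 FPKM on day 15, monocyte sums 167 to 354 and 20.3 to 73.4 FPKM, and B cell sums 21.3 to 63.3 and 7.99 to 11.6 FPKM. The 4 T and NK cell markers were lower too, with a median of -1.51, and 1 of them passed with limma. All markers of the fibroblast, mesothelial, fat cell, red cell and atrial lists were lower, with medians of -0.43, -0.85, -1.27, -0.66 and -0.91. All 6 cardiomyocyte markers were higher (median 0.73, 5 with an unadjusted p under 0.05). All 6 endothelial markers (0.19) and 4 of 5 mural markers (0.09) were higher as well. The part of these cells was not tested. Without the Myl7-rich libraries, which leaves 1 library in each of these groups, the median of the members was 0.20 and 8 were negative.

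**Figure D5:**
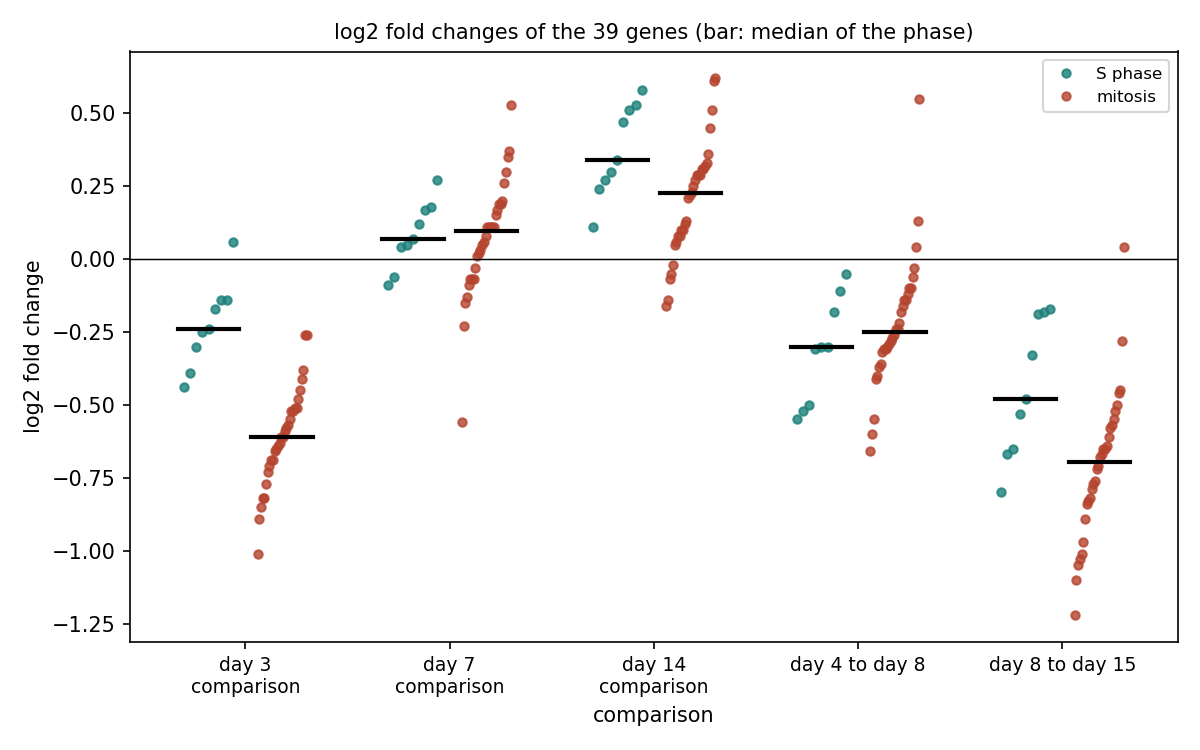
Each point is the log2 fold change of 1 gene in 1 of the 5 comparisons, with S phase genes in green, mitosis genes in red and black bars at the medians. The mitosis medians are -0.61, 0.09, 0.23, -0.25 and -0.69 from left to right, and comparisons that share a group are not independent.

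Whether the effect of the last injection differed between days was tested as a difference of fold changes in the fit of all 18 libraries. No member passed for any pair of days, where 0 of 13116 genes passed with limma (0.00%). The day 14 change was above the day 3 change by a median of 0.79 on the log2 scale, at 0.55 for S phase and 0.82 for mitosis genes, and all 39 members were positive. An unadjusted p under 0.05 was found for 8 members, against 4.89% of all genes. The day 7 change was above the day 3 change by a median of 0.62, with 38 members positive and 1 at an unadjusted p under 0.05, against 4.80% of all genes. Between day 14 and day 7 the median was 0.18 and no member had such a p, against 2.63%. The lower mitosis genes after aNMP-2a on day 3 were therefore not shown to differ from the values after the later nanomedicines.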

How the data were processed

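Heart tissue was frozen and homogenised, and polyadenylated RNA was enriched and sequenced on DNA nanoballs, per the labels' protocols. The authors deposited 1 table per day with 1 column per library. The deposited values were taken to be FPKM from their sums, since no header names the unit: plain sums varied by 3.81% between libraries (coefficient of variation) and sums weighted by transcript length by 2.11%. The tools given per the submitters' processing notes are RSEM 1.2.8, Bowtie2 2.2.5 and HISAT2 2.1.0, with the build GRCm38.p6, and the role of each tool is not given in the sources used here. No counts are held in the tables, and counting error could therefore not be assessed.

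Groups follow the sample titles. Genes that reached 1 FPKM in 3 or more libraries of a comparison entered the test at log2(FPKM + 0.5), made with limma 3.58.1 (R 4.3.3), with variances moderated robustly along a mean trend, two-sided p values and Benjamini-Hochberg adjustment over all genes tested. Genes passed at an adjusted p under 0.05. A log2 fold change on this scale understates the change of low genes. The steps were tested on simulated data. The 39 members and all lists were chosen with earlier results of these data known. Members that passed, otherwise the 2 of smallest p, the highest and lowest members and 9 fixed members (Mki67, Top2a, Cdk1, Ccnb1, Cdc20, Mcm2, Mcm5, Pcna and Rrm2) are given in each comparison. Of the other cycle genes, 7 fixed control genes and those that passed are given, and a further mitotic gene, Racgap1, was named beside the 3 that the rule allows because only 4 passed. Other members named in passing were chosen after their values were seen. Alternatives were other pseudocounts, filters, scalings and fits, a replicate block, an atrial covariate, and leaving out single libraries or those with at least 50 FPKM of Myl7. Promoters were taken from a RefSeq table of GRCm38.p6. Python 3.11.15 with matplotlib 3.10.9 made the plots.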

Additional observations from a re-analysis of the deposited data

How the results depend on the processing

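On day 3, 6 members fell under both other pseudocounts (0.1 and 1), rescaling to the same sum and upper quartile scaling. The count was 3 without the filter on low values (1.10% of all genes passed), 0 with the atrial covariate (0.176%) and 0 in the fit of all 18 libraries (0.0229%). It was from 0 to 18 when 1 library was left out (0.572% to 1.91% of all genes). The median of all members was -0.55, and it was -0.22 with the atrial covariate, -0.25 without the Myl7-rich libraries and from -0.69 to -0.46 with 1 library left out. The direction turned with the atrial covariate for Mcm3 (0.15), Mcm4 (0.12), Mcm5 (0.06), Tk1 (0.02), Cenpf (0.18) and Aurkb (0.07), and without the Myl7-rich libraries for Mcm3 (0.12), Mcm4 (0.10), Mcm5 (0.04), Cenpf (0.14) and Aurkb (0.01). Mcm6 ranged from -0.07 to 0.16 with 1 library left out.

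In the other comparisons no member passed under any alternative run. With 1 library left out the median of members ranged from -0.13 to 0.38 on day 7, from -0.00 to 0.51 on day 14, from -0.53 to -0.05 between days 4 and 8 and from -0.91 to -0.45 between days 8 and 15. Without the Myl7-rich libraries it was -0.52 on day 7 and 0.20 between days 8 and 15. Leaving these libraries out turned, on day 7, Mcm2 (-0.28), Mcm5 (-0.31), Mcm6 (-0.01), Rrm2 (-0.48), Ccnb1 (-0.29), Cdk1 (-0.66), Birc5 (-0.08), Top2a (-0.39) and Mki67 (-0.74), on day 14 Mcm2 (-0.12), Ccnb1 (0.06) and Cdk1 (-0.01), between days 4 and 8 Cenpf (-0.01), and between days 8 and 15 Mcm2 (0.40), Mcm5 (0.26), Pcna (0.04), Rrm2 (0.38), Cdk1 (0.25), Cdc20 (0.76) and Mki67 (0.40). Upper quartile scaling turned Cdk1 on day 7 (-0.01), a pseudocount of 1 turned Ccnb1 on day 14 (0.02), and rescaling to the same sum turned Cenpf between days 8 and 15 (-0.01). With 1 library left out, values on day 7 ranged from -0.01 to 0.77 for Ccnb1, -0.59 to 0.17 for Cdc20, -0.25 to 0.43 for Cdk1, -0.11 to 0.24 for Mcm2, -0.03 to 0.40 for Mcm5, -0.17 to 0.36 for Mki67, -0.06 to 0.54 for Rrm2 and -0.07 to 0.58 for Top2a. On day 14 they ranged from -0.52 to 0.51 for Ccnb1 and -0.36 to 0.32 for Cdc20. Between days 4 and 8 they ranged from -0.27 to 0.37 for Cdc20, -0.40 to 0.13 for Mki67 and -0.20 to 0.01 for Pcna, and between days 8 and 15 from -0.18 to 0.34 for Cenpf. The cause of these turns was not tested.

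Replicate numbers were not found to pair the samples: correlations of same-numbered deviations were 0.13, -0.05 and 0.24 on day 3, and -0.37 to 0.36 over all comparisons. With the replicate number as a block 3 members fell on day 3 (Cdc20, Aurka and Tpx2), where 1.85% of all genes passed. No member passed elsewhere.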

Other observations

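A few genes of the wider lists did not follow the members. Pttg1, which encodes securin, the inhibitor of chromosome separation, was at 101.5 to 242 FPKM in the 18 libraries, above every member, and its group means ran from 142 ± 20.8 (SD, n = 3) in PBS_D3 to 202 ± 65.9 in aNMP-2a+2b+2c_D14, where most mitosis genes were low. Cdkn1a was at 105 FPKM in 1 library of aNMP-2a+2b_D7 and at 107.7 FPKM in 1 of aNMP-2a+2b+PBS_D14, and was at 17.9 to 46.6 FPKM in the other 16. These libraries were replicate 3 of their groups, which were the lowest of their groups for 37 and 31 of the 39 members. The other 16 included aNMP-2a+2b+2c_D14 replicate 2 and aNMP-2a+PBS_D7 replicate 2, the lowest of their groups for 38 and 31 members. A link between Cdkn1a and the members was not tested. These genes were chosen after their values were seen.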
